A study of Homo sapiens with 6 samples.

Results

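The genes that build cholesterol and unsaturated fatty acids were followed in K562, a long-established human erythroleukaemia line, through 6 RNA-sequencing libraries. The set was listed by pathway step: acetyl-CoA supply, mevalonate to farnesyl diphosphate, squalene to lanosterol, lanosterol to cholesterol, regulation and transport, and fatty acid synthesis and desaturation. Of 30 listed genes, 29 had transcripts in the tables, out of 33367 genes in all, and all 29 passed the filter on low counts that left 14075 genes for testing. ACACA, the acetyl-CoA carboxylase, was not analysed here. Membership did not use the measured values. K562 cells carried a doxycycline-inducible short hairpin RNA (shRNA), either non-targeting (NT) or directed at CDAN1, the gene mutated in a congenital dyserythropoietic anaemia, and all were kept under puromycin. The NT line, clone c1 and clone c2 (both CDAN1-shRNA) each gave 1 library without doxycycline and 1 with 1 µg/ml doxycycline, all at day 4. The tables of c2 were deposited under another clone number than their sample titles give, and the titles were followed. The 2 induced CDAN1-shRNA libraries were the knockdown group, and the 4 controls were the 2 NT libraries and the 2 uninduced CDAN1-shRNA libraries, as the series' design text sets them. Each clone and state was 1 culture, so a p-value measures only the spread between these libraries, estimated partly over all genes. A difference between clones describes those cultures, not the hairpin they carry.

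Cells make cholesterol from acetyl-CoA through mevalonate, farnesyl diphosphate, squalene and lanosterol. The transcription factors SREBP-1 and SREBP-2, made from SREBF1 and SREBF2, switch on most genes of this route and of fatty acid synthesis when sterols in the endoplasmic reticulum run low. SCAP escorts the SREBPs to the Golgi for cleavage, and the INSIG proteins hold SCAP back when sterols are plentiful. In red cell precursors the route supplies membrane cholesterol, and its isoprenoid branch supplies heme A, dolichol and prenyl groups.

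The libraries held 28318555 to 32352246 estimated reads. Levels are given as CPM, reads relative to the scaled library total, where a gene is compared across libraries, and as TPM, which corrects for transcript length, where genes are compared with each other. CDAN1 read 62.5 and 70.2 CPM in NT without and with doxycycline. It read 37.0 and 17.0 CPM in c1, and 55.4 and 29.8 CPM in c2, so both knockdown libraries lay below all 4 controls, and uninduced c1 already lay below NT. The 11 erythroid markers summed to 29660 to 44610 TPM, the 5 megakaryocyte markers to 157 to 269.5 TPM, the 5 granulocyte and monocyte markers to 57.3 to 85.8 TPM and the 4 lymphoid markers to 23.4 to 70.1 TPM. The last 2 sums were nearly all from single genes, LYZ (57.0 to 84.6 TPM) and CD3D (21.5 to 68.5 TPM). CSF1R, MPO, ELANE, CD3E and MS4A1 were under 1 TPM in every library. The 4 adipocyte and hepatocyte markers (ADIPOQ, PLIN1, ALB and APOB) summed to at most 0.148 TPM, and 2 of them were at 0 in every library.

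Promoters of 4 genes whose levels differed between clones, and of SREBF2, are shown because SREBPs act there together with the factors NF-Y and Sp1. Each run is the 250 bases before the RefSeq transcription start (GRCh38.p14), read along the gene. Capitals mark the SREBP site TCACNCCAC, the CCAAT box (CCAAT, bound by NF-Y) and the GC box (GGGCGG, bound by Sp1), searched on both strands, so the reverse complements ATTGG and CCGCCC are in capitals too.
HMGCS1, chr5:43313413-43313662, minus strand: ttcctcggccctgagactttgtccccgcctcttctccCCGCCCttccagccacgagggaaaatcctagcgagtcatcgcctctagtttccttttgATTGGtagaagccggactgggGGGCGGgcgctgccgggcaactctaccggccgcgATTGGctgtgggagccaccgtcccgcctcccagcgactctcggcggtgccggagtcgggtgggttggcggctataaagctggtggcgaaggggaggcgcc
FDPS, chr1:155308616-155308865, plus strand: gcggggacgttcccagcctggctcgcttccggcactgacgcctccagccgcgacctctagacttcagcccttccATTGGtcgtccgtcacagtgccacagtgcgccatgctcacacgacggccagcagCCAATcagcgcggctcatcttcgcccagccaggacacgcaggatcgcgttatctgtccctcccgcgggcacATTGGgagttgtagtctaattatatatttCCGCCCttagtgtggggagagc
LSS, chr21:46228775-46229024, minus strand: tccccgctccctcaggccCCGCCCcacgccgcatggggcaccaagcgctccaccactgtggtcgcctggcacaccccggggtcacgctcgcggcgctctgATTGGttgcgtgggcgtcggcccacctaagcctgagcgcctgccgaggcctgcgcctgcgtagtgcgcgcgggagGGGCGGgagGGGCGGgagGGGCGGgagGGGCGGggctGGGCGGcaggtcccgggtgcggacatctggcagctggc
FADS1, chr11:61817004-61817253, minus strand: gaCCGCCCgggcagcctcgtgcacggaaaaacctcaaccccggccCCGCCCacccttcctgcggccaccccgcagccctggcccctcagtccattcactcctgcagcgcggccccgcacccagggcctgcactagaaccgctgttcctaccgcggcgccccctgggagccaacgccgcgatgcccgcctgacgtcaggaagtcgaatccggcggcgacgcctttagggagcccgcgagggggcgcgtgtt
SREBF2, chr22:41832855-41833104, plus strand: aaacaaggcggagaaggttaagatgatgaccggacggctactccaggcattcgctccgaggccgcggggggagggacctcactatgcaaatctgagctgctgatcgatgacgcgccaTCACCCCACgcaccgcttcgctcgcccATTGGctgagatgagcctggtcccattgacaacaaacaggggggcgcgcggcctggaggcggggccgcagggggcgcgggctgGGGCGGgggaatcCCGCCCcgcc

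HMGCS1 held 2 CCAAT boxes and 2 GC boxes, FDPS 3 and 1, LSS 1 and 6, and FADS1 0 and 2. SREBF2 was the only member with the SREBP site in its window. The table matched 25 of the 29 members, with 32 promoter windows between them (ACAT2, FDFT1, SQLE and FASN were not matched). A CCAAT box lay in 19 of the 32 windows (59.4%) against 32% of all 35116 windows of that length, and a GC box in 29 of 32 (90.6%) against 42.6%. The SREBP site lay in 1 of 32 (3.12%) against 0.883%. These are matches of letters in a window, not measured sites, and GENCODE 29 starts HMGCS1, FDPS, LSS and SREBF2 inside their windows and FADS1 upstream of its own.

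The genes spanned a wide range of levels. FDPS, which makes farnesyl diphosphate, ran from 306 to 402 TPM and was highest in every library but uninduced c1, where it read 311 TPM and SCD 318 TPM. The fatty acid desaturases SCD (247 to 318 TPM) and FADS1 (139 to 317 TPM) had ranges that overlapped with it. Those of fatty acid synthase FASN (215 to 287 TPM) and squalene synthase FDFT1 (221 to 266 TPM) lay below it and overlapped with those of SCD and FADS1. INSIG2 (4.80 to 8.03 TPM), PMVK (6.19 to 9.98 TPM) and AACS (7.83 to 10.7 TPM) were lowest. Across the 6 libraries 7 of 29 genes had a highest TPM at least 1.5 times the lowest. HMGCS1 had the widest span (2.35-fold), then FADS1 (2.28-fold), TM7SF2 (1.91-fold), FADS2 (1.82-fold), INSIG2 (1.67-fold), PMVK (1.61-fold) and LSS (1.52-fold). MVK, mevalonate kinase, had the narrowest at 1.09-fold. These spans are in TPM, and the list depended on the scale. In CPM 7 genes also reached 1.5-fold, but INSIG2 and LSS fell below it and FASN and MSMO1 reached it. FADS1 then had the widest span, ahead of HMGCS1, and SREBF2 the narrowest (1.10-fold).

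**Figure D1:**
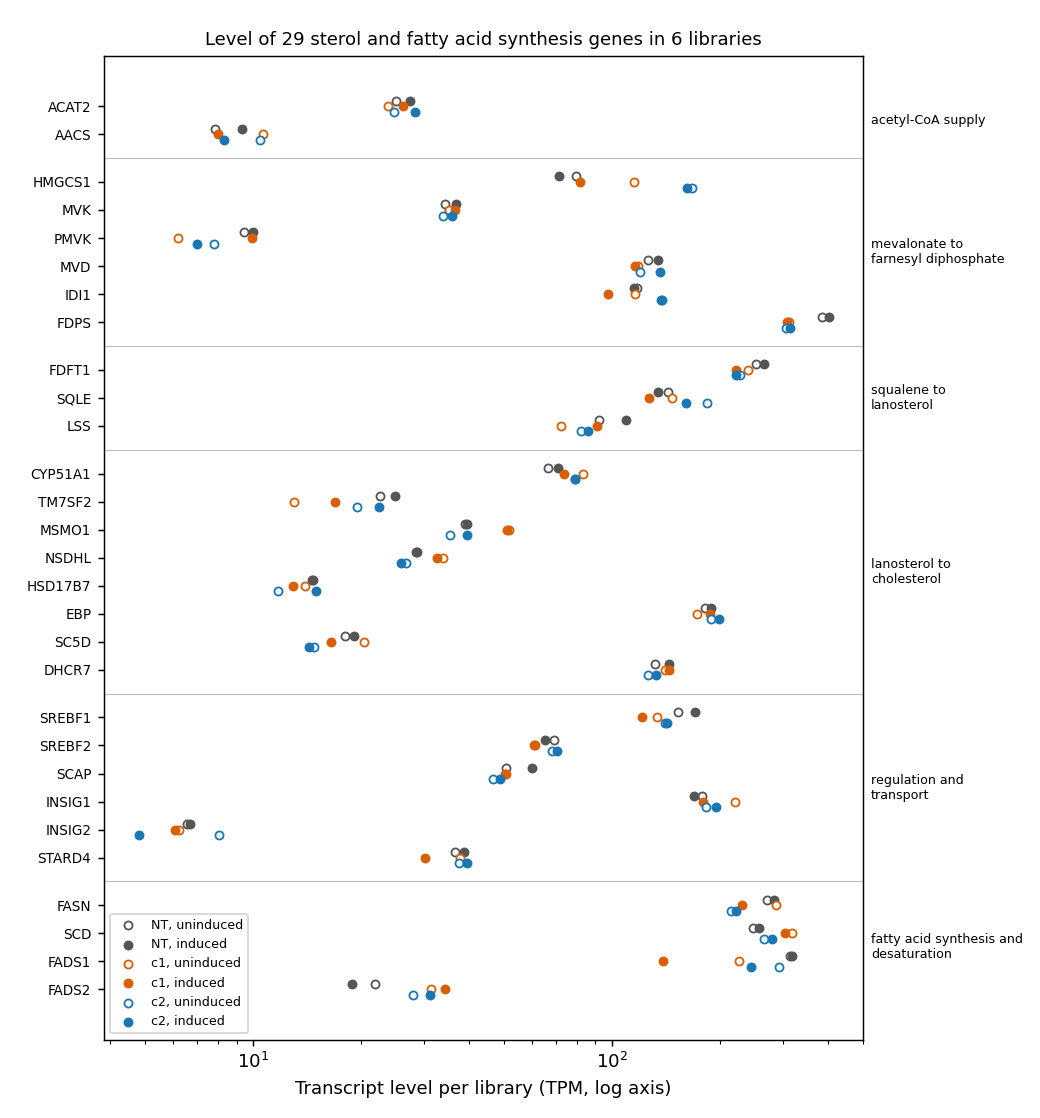
TPM (log axis) of the 29 genes in each library, ordered by pathway step; open points are uninduced and filled points induced, with the NT line in grey, c1 in orange and c2 in blue. HMGCS1 runs from 71.2 TPM in induced NT to 167 TPM in uninduced c2, while the 6 points of MVK lie between 33.9 and 36.9 TPM.

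Knockdown of CDAN1 was first set against all 4 controls, the comparison the series names. None of the 29 genes was called at an adjusted p under 0.05 by edgeR's quasi-likelihood test, and neither was any of the 14075 genes tested (0% called). At an unadjusted p under 0.05 there were 322 genes, and 1 of them was a member, FADS1. DESeq2 called 22 genes, 0 of them members. The median log2 fold change of the members was −0.03, with 13 above 0 and 16 below, beside −0.00 over all genes. With the clone as a replicate block, which compares each clone with itself, edgeR called 6 genes (0.0426%) and again 0 members. Their median was then 0.01, with 15 above 0 and 14 below.

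Within the CDAN1-shRNA clones, induced against uninduced, the unblocked fit called 0 of 29 members and 0% of all genes, with 207 genes at an unadjusted p under 0.05, and DESeq2 called 2 genes and 0 members. The blocked fit called 141 genes (1.00%) and 1 of 29 members, FADS1. The clones' response set against the NT response gave 0 members and 0% of all genes without the block (79 genes at an unadjusted p under 0.05, and 5 by DESeq2), and 0 members and 19 genes (0.135%) with it. Doxycycline against none over all 3 clones gave 0 members and 0% of all genes without the block (217 at an unadjusted p under 0.05, and 6 by DESeq2). With the block it gave 0 members and 18 genes (0.128%). These 4 comparisons share libraries, so they are not independent readings.

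Each clone's own response was also read. The induced minus uninduced difference in log2 CPM, 1 library against 1 and so without a test, had a median over the members of 0.02 in NT, −0.03 in c1 and 0.03 in c2, beside −0.00, −0.01 and −0.00 over all genes tested. In NT the 29 values ran from −0.15 to 0.13, in c2 from −0.32 to 0.34, and in c1 from −0.75 to 0.67. The middle 50% of members lay between −0.24 and 0.08 in c1, between −0.04 and 0.06 in NT and between −0.03 and 0.10 in c2. Counts above and below 0 were 17 and 12 in NT, 13 and 16 in c1, and 19 and 10 in c2.

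**Figure D2:**
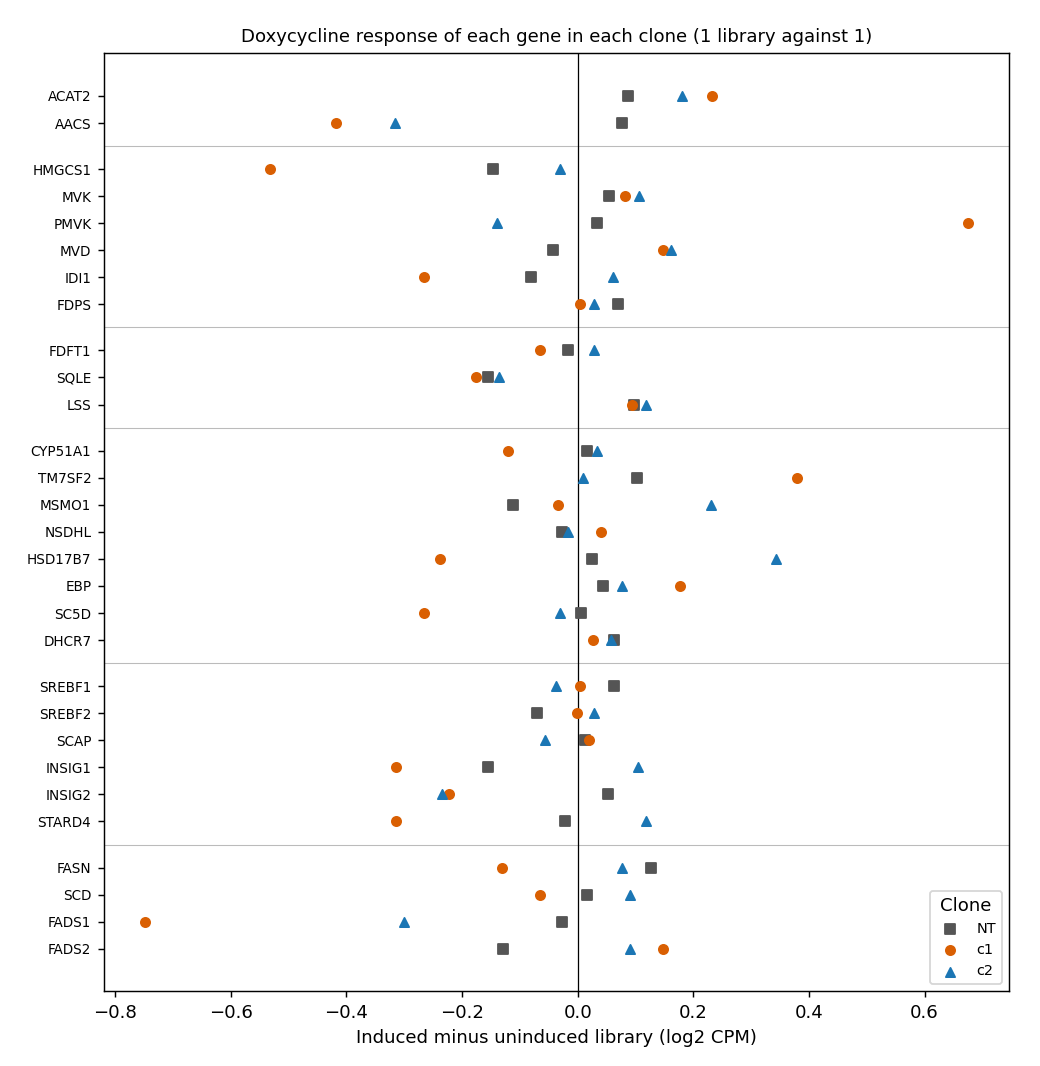
Induced minus uninduced log2 CPM of each of the 29 genes (horizontal axis), ordered by pathway step, in NT (grey squares), c1 (orange circles) and c2 (blue triangles), each from 1 library against 1. FADS1 in c1 lies farthest to the left at −0.75 and PMVK in c1 farthest to the right at 0.67, and all NT points lie between −0.15 and 0.13.

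Differences between the cultures of different clones were called far more often than differences with doxycycline. With doxycycline as a covariate, edgeR called 11 of 29 members between c1 and NT (37.9%, beside 27.8% of all genes). Of these, 5 were higher in c1 and 6 lower, where 13.8% of all genes were higher and 14.0% lower. Between c2 and NT it called 10 of 29 (34.5%, beside 21.1%), 3 higher in c2 and 7 lower, where 11.8% of all genes were higher and 9.21% lower. Between c2 and c1 it called 11 of 29 (37.9%, beside 26.8%), 4 higher in c2 and 7 lower, where 14.9% of all genes were higher and 11.9% lower. The median log2 fold change of the members was −0.05, −0.13 and −0.08 in that order, beside −0.00, −0.00 and −0.01 over all genes. The first 2 comparisons share the NT libraries, and the third shares c1 with one and c2 with the other, so their values stand side by side only. The calls depended on the scale and on single libraries: on log2(TPM + 1) limma called 7, 4 and 6 members, and leaving out induced NT gave 7 for c1 and 4 for c2 against NT.

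Markers of the erythroid and megakaryocyte lineages, which K562 cells can both express, differed between the same cultures. The 11 erythroid markers summed to 40560 and 44610 TPM in NT without and with doxycycline, 40760 and 43670 TPM in c1, and 29660 and 33210 TPM in c2, so c2 was lowest. Of these 11, 2 were called higher and 3 lower in c1 than in NT, 7 lower in c2 than in NT and 9 lower in c2 than in c1, with 0 higher in the last 2. The alpha-globin gene HBA2 stood at −0.26, −1.43 and −1.17 in that order and ALAS2, the erythroid enzyme that opens heme synthesis, at 0.96, −0.17 (not called) and −1.13. The 5 megakaryocyte markers summed to 269.5 and 240.5 TPM in NT, 157 and 177 TPM in c1, and 266 and 247 TPM in c2. Of these, 4 were lower in c1 than in NT, 3 were higher and 1 lower in c2 than in NT, and 4 were higher in c2 than in c1. ITGA2B, the platelet integrin subunit, read 38.8 and 32.1 CPM in NT, 13.6 and 11.6 CPM in c1, and 154 and 145 CPM in c2. Its log2 fold changes were −1.49, 2.08 and 3.57. GP1BB stood at −0.56, −0.57 and −0.01 (the last not called), so it was lower in c2 than in NT. It made up most of each sum, with 250 and 224 TPM in NT, 150 and 172 TPM in c1, and 171 and 163 TPM in c2. GP9 and PF4 rested on at most 50 reads a library. The part of these lineage differences in the members' clone differences was not tested.

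**Figure D3:**
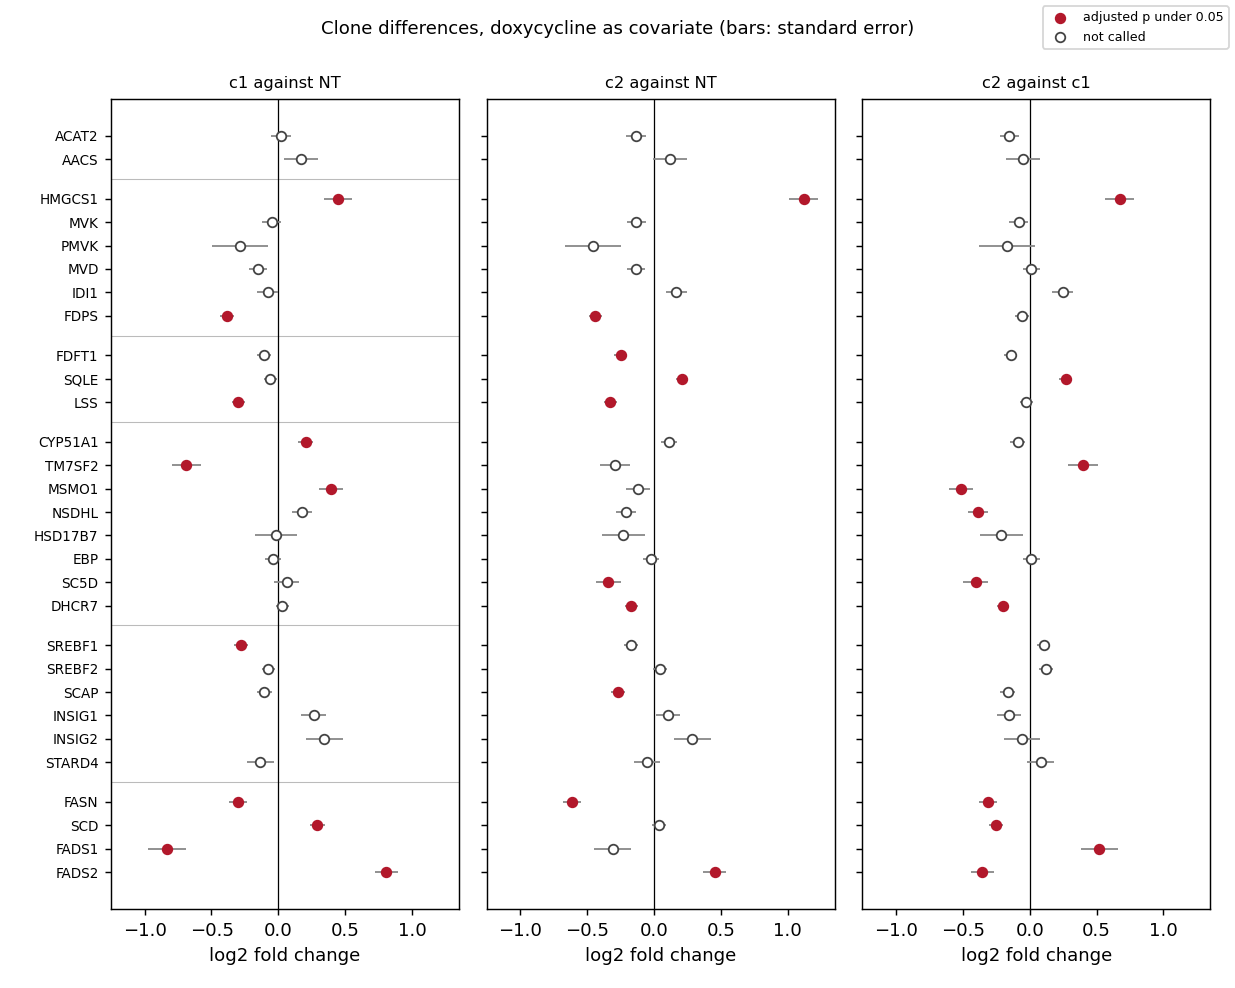
Log2 fold change between clones for each of the 29 genes, with doxycycline as a covariate (3 panels: c1 against NT, c2 against NT, c2 against c1); bars are standard errors, and filled red points have an adjusted p under 0.05. HMGCS1 lies at 0.45, 1.12 and 0.67, and FADS1 at −0.83, −0.31 (not called) and 0.52.

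Acetyl-CoA supply had 2 members, and neither was called in any fit of any comparison. AACS, which activates acetoacetate in the cytosol, read 21.9 and 23.1 CPM in NT without and with doxycycline, 29.3 and 21.9 CPM in c1, and 27.3 and 22.0 CPM in c2. Both uninduced CDAN1-shRNA libraries were thus above the other 4, which lay together. Induced c1 held 74.8% of the uninduced AACS level (95% counting interval 67.4 to 82.9) and induced c2 80.3% (72.3 to 89.1), while induced NT held 106% (94.1 to 118). The induced against uninduced log2 fold change in the clones was −0.37 ± 0.13 (SE; edgeR adjusted p = 1), and −0.37 ± 0.10 with the block (adjusted p = 0.143). Against all controls AACS stood at −0.21 ± 0.15, and against the NT response at −0.45 ± 0.22 (adjusted p = 1 for both). ACAT2, which condenses acetyl-CoA into acetoacetyl-CoA, read 55.5 and 59.0 CPM in NT, 53.5 and 62.9 CPM in c1, and 49.1 and 55.6 CPM in c2. It was the higher of each pair in the induced library, with a doxycycline log2 fold change over all clones of 0.17 ± 0.09, or 0.17 ± 0.06 with the block (adjusted p = 1 and 0.308).

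From mevalonate to farnesyl diphosphate, 2 of 6 members were called between c1 and NT (beside 27.8% of all genes). It was 2 between c2 and NT (beside 21.1%) and 1 between c2 and c1 (beside 26.8%). HMGCS1, the cytosolic synthase that makes HMG-CoA, read 210 and 189 CPM in NT without and with doxycycline, 324 and 224 CPM in c1, and 436 and 427 CPM in c2. The 3 clones did not overlap. HMGCS1 was higher than NT in c1 by 0.45 ± 0.11 (log2 fold change ± SE, adjusted p = 0.0201) and in c2 by 1.12 ± 0.11 (adjusted p = 0.00052), and it was higher in c2 than in c1 by 0.67 ± 0.11 (adjusted p = 0.00346). The call against NT in c2 and the call between c2 and c1 were made in all 13 fits run, and the call in c1 in 8 of 13. That one ended without uninduced NT (0.37, adjusted p = 0.104) and without uninduced c1 (0.21, adjusted p = 0.0582). It was also not made without a doxycycline term, by DESeq2 or by limma on log2(TPM + 1) (adjusted p = 0.0602 to 0.0883). Induced c1 held 69.1% of its uninduced level (67.0 to 71.3), induced NT 90.3% (87.0 to 93.9) and induced c2 97.9% (95.5 to 100). Its knockdown value against all controls was 0.17 ± 0.39 and turned to −0.28 ± 0.11 with the block, neither called (adjusted p = 1 and 0.391).

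FDPS, at the other end of this stretch, read 288 and 302 CPM in NT, 226 and 227 CPM in c1, and 215 and 220 CPM in c2. All 4 CDAN1-shRNA libraries lay below both NT libraries, and the libraries of each clone lay close together. FDPS was lower than NT by −0.38 ± 0.05 in c1 (adjusted p = 0.00169) and by −0.44 ± 0.05 in c2 (adjusted p = 0.00104), called in all 13 fits run for each. PMVK, phosphomevalonate kinase, rested on 167 to 286 reads a library, and its widest change was between 5.90 and 9.46 CPM in c1, with 7.06 and 6.40 CPM in c2 and 9.16 and 9.38 CPM in NT. MVD, which decarboxylates mevalonate diphosphate, read 113 CPM in both uninduced clones, 125 and 126 CPM in the induced ones and 133 and 129 CPM in NT. The clones' response of MVD against the NT response was 0.20 ± 0.14 (adjusted p = 1), and that value turned to −0.01 on log2(TPM + 1) with limma. MVK was not called in any fit run. The isomerase IDI1 read 189 and 179 CPM in NT, 191 and 159 CPM in c1, and 202 and 211 CPM in c2, so c2 was highest. It stood at 0.25 ± 0.08 between c2 and c1 (adjusted p = 0.0513), just short of the threshold, and 7 of the 13 fits run called it. FDPS, IDI1, MSMO1, CYP51A1 and HSD17B7 have near-identical pseudogene copies, so the division of their reads is uncertain.

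From squalene to lanosterol, 1 of 3 members was called between c1 and NT (beside 27.8% of all genes). It was 3 of 3 between c2 and NT (beside 21.1%) and 1 of 3 between c2 and c1 (beside 26.8%). LSS, which closes squalene epoxide into lanosterol, read 256 and 274 CPM in NT, 208 and 222 CPM in c1, and 202 and 220 CPM in c2. Both clones lay below NT throughout. LSS was lower by −0.30 ± 0.05 in c1 (adjusted p = 0.00418) and by −0.33 ± 0.05 in c2 (adjusted p = 0.0034), and both calls ended on log2(TPM + 1), at adjusted p = 0.0601 and 0.11. In TPM, LSS read 91.9 and 110 in NT, 72.0 and 90.8 in c1, and 81.9 and 86.0 in c2, and uninduced NT lay close to induced c1. Its response was alike in direction in the 3 clones, at 0.10, 0.09 and 0.12 log2 CPM.

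SQLE, the squalene epoxidase, read 358 and 322 CPM in NT, 346 and 306 CPM in c1, and 411 and 374 CPM in c2. The induced library was the lower of every pair, by −0.15, −0.18 and −0.14 log2 CPM, and the doxycycline comparison with the block gave −0.16 ± 0.04 (adjusted p = 0.196). SQLE was higher in c2 than in NT by 0.21 ± 0.05 (adjusted p = 0.0196) and than in c1 by 0.27 ± 0.05 (adjusted p = 0.00566). The call between c2 and c1 ended without induced c2 (adjusted p = 0.0503) and without a doxycycline term (adjusted p = 0.0646). The call against NT ended on leaving out any of the 4 libraries compared (adjusted p = 0.112 to 0.174) and without a doxycycline term (adjusted p = 0.15). FDFT1 read 348 and 344 CPM in NT, 329 and 314 CPM in c1, and 288 and 294 CPM in c2. It was lower in c2 than in NT by −0.25 ± 0.05 (adjusted p = 0.0121), a call that likewise ended on leaving out any of those 4 libraries (adjusted p = 0.0653 to 0.149), and on log2(TPM + 1) (adjusted p = 0.115).

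From lanosterol to cholesterol, 3 of 8 members were called between c1 and NT (beside 27.8% of all genes). It was 2 between c2 and NT (beside 21.1%) and 5 between c2 and c1 (beside 26.8%). TM7SF2, a sterol C14 reductase, read 25.6 and 27.5 CPM in NT, 14.3 and 18.7 CPM in c1, and 21.6 and 21.7 CPM in c2. The c1 libraries lay below all others, by −0.69 ± 0.11 against NT (adjusted p = 0.00416), a call made in all 13 fits. MSMO1, the sterol C4 methyl oxidase, read 68.5 and 63.4 CPM in NT, 87.6 and 85.6 CPM in c1, and 56.0 and 65.7 CPM in c2. It was higher in c1 than in NT by 0.39 ± 0.09 (adjusted p = 0.0163) and lower in c2 than in c1 by −0.51 ± 0.09 (adjusted p = 0.00547). NSDHL, which acts beside it in C4 demethylation, read 40.3 and 39.6 CPM in NT, 44.4 and 45.7 CPM in c1, and 34.7 and 34.3 CPM in c2. It was lower in c2 than in c1 by −0.39 ± 0.08 (adjusted p = 0.00908). Leaving out induced c1, uninduced c2 or induced c2 ended the call of NSDHL (adjusted p = 0.0563 to 0.0877), and leaving out uninduced c2 that of MSMO1 between these clones (adjusted p = 0.0517). The higher MSMO1 in c1 than in NT was not called without induced NT or without uninduced c1 (adjusted p = 0.0994 and 0.0997). TM7SF2 was higher in c2 than in c1 by 0.40 ± 0.11 (adjusted p = 0.0348), which ended without the uninduced library of either clone (adjusted p = 0.185 for c1 and 0.262 for c2). That call was made in 8 of 13 fits, and not by DESeq2, without a doxycycline term or with transcript length as an offset (adjusted p = 0.0553 to 0.0812).

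SC5D, the lathosterol desaturase, read 32.1 and 32.2 CPM in NT, 36.8 and 30.6 CPM in c1, and 25.7 and 25.1 CPM in c2, so c2 was lowest. It was lower in c2 than in c1 by −0.40 ± 0.10 (adjusted p = 0.0186) and than in NT by −0.34 ± 0.10 (adjusted p = 0.0415). DHCR7, the last reductase of this branch, was also lowest in c2, with −0.20 ± 0.05 between c2 and c1 (adjusted p = 0.0205) and −0.17 ± 0.05 between c2 and NT (adjusted p = 0.042). CYP51A1, the lanosterol demethylase, was higher in c1 than in NT by 0.20 ± 0.06 (adjusted p = 0.0369). That call was made in 4 of 13 fits and ended without either NT library, uninduced c1 or either c2 library (adjusted p = 0.0574 to 0.226). The calls of SC5D and DHCR7 between c2 and NT were made in 5 of 13 fits and ended without any 1 of the 4 libraries compared (adjusted p = 0.0673 to 0.304). Between c2 and c1 both ended without uninduced c1 or either c2 library (adjusted p = 0.0506 to 0.211) and on log2(TPM + 1) (adjusted p = 0.14 for SC5D and 0.197 for DHCR7). EBP, the sterol isomerase, and HSD17B7, the 3-keto reductase, were not called in any fit of any comparison. EBP read 98.9 and 102 CPM in NT, 92.0 and 104 CPM in c1, and 96.1 and 101 CPM in c2, with a doxycycline log2 fold change of 0.10 ± 0.07 (adjusted p = 1).

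Among the 6 genes of regulation and transport, 1 was called between c1 and NT (beside 27.8% of all genes). It was 1 between c2 and NT (beside 21.1%) and 0 between c2 and c1 (beside 26.8%). SREBF1 read 263 and 275 CPM in NT, 222 and 222 CPM in c1, and 242 and 235 CPM in c2, and was lower in c1 than in NT by −0.28 ± 0.05 (adjusted p = 0.00726). In c2 it stood at −0.17 ± 0.05 (adjusted p = 0.0502), and 4 of 13 fits called it. Leaving out induced NT ended the call in c1 (adjusted p = 0.055). SCAP read 158 and 159 CPM in NT, 146 and 148 CPM in c1, and 134 and 129 CPM in c2, and was lower in c2 than in NT by −0.27 ± 0.05 (adjusted p = 0.0109). That call was made in 8 of 13 fits, ending with transcript length as an offset (adjusted p = 0.0524), on log2(TPM + 1) (adjusted p = 0.177) and without either NT library or induced c2 (adjusted p = 0.0536 to 0.171). SREBF2 spanned 1.10-fold in CPM over the 6 libraries. INSIG1, which retains SCAP and is itself an SREBP target, read 362 and 325 CPM in NT, 457 and 368 CPM in c1, and 355 and 381 CPM in c2, and STARD4, a cytosolic sterol carrier, read 92.5 and 91.1, 93.0 and 74.7, and 84.8 and 92.0 CPM. For both, the induced minus uninduced difference was −0.31 log2 CPM in c1, with 0.10 and 0.12 in c2. Neither was called by the main edgeR fit, but edgeR without the filter on low counts called INSIG1 between c1 and NT. INSIG1 stood at 0.26 ± 0.09 in c1 against NT (adjusted p = 0.066), which 5 of 13 fits called, and 1 of 13 called it between c2 and c1. STARD4 was called in 1 of 13 fits, for c1 against NT without uninduced c1.

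All 4 genes of fatty acid synthesis and desaturation were called between c1 and NT (beside 27.8% of all genes). It was 2 between c2 and NT (beside 21.1%) and 4 between c2 and c1 (beside 26.8%). FADS1, the delta-5 desaturase that completes arachidonic acid, read 1182 and 1160 CPM in NT without and with doxycycline, 851 and 507 CPM in c1, and 1056 and 857 CPM in c2. Each knockdown library lay below its own uninduced library and below both NT libraries, but induced c2 lay just above uninduced c1, so knockdown and controls overlapped. Induced c1 held 59.5% of the uninduced level (95% counting interval 58.3 to 60.8), induced c2 81.2% (79.8 to 82.5) and induced NT 98.1% (96.6 to 99.7). Fewer cells that express the gene and less RNA per cell cannot be told apart in bulk RNA. In TPM it read 313 and 317 in NT, 226 and 139 in c1, and 293 and 245 in c2. A single coding transcript carried 97.7% to 98.6% of its reads in every library.

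With the block, FADS1 was lower in induced than in uninduced CDAN1-shRNA clones by −0.52 ± 0.09 (edgeR adjusted p = 0.0344), and without it by −0.48 ± 0.29 (adjusted p = 1). The blocked fit kept few residual degrees of freedom, so its SE and p lean on the spread shared over all genes. They do not by themselves measure the spread of FADS1 between c1 (−0.75) and c2 (−0.30). The blocked call was also made without the filter on low counts (adjusted p = 0.00152) and without uninduced or induced NT (adjusted p = 0.0475 and 0.023). It was not made by blocked DESeq2 (adjusted p = 1), with transcript length as an offset (adjusted p = 0.34) or by limma on log2(TPM + 1) (adjusted p = 0.442). Against all controls FADS1 stood at −0.64 ± 0.23 (unadjusted p = 0.0286, adjusted p = 1), or −0.52 ± 0.10 with the block (adjusted p = 0.139). The unblocked value was −0.31 without induced c1 and −1.07 without induced c2. The clones' response against the NT response was −0.50 ± 0.16 with the block (adjusted p = 0.696) and −0.46 ± 0.50 without it (adjusted p = 1). Between clones FADS1 was lower in c1 than in NT by −0.83 ± 0.14 (adjusted p = 0.00514), in all 13 fits, and higher in c2 than in c1 by 0.52 ± 0.14 (adjusted p = 0.03). Against NT in c2 it stood at −0.31 ± 0.14 (adjusted p = 0.162), called in 4 of 13 fits. Without induced c1 the difference from NT was −0.55, and without uninduced c1 −1.13. Without induced c1 the difference between c2 and c1 was 0.24 and no longer called (adjusted p = 0.101), nor was it without a doxycycline term (adjusted p = 0.139) or on log2(TPM + 1) (adjusted p = 0.0618). With an NT library left out, the blocked fit against all controls is the same fit as that of induced against uninduced clones, so it too passed the threshold.

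FADS2, the delta-6 desaturase, was ordered the other way. It read 44.6 and 40.7 CPM in NT, 70.9 and 78.5 CPM in c1, and 56.6 and 60.3 CPM in c2, and the clones did not overlap. It was higher than NT by 0.81 ± 0.09 in c1 (adjusted p = 0.000791), in all 13 fits, and by 0.45 ± 0.09 in c2 (adjusted p = 0.01). FADS2 was lower in c2 than in c1 by −0.35 ± 0.09 (adjusted p = 0.0201), a call that ended with transcript length as an offset (adjusted p = 0.267), on log2(TPM + 1) (adjusted p = 0.44) and without induced c1, uninduced c2 or induced c2 (adjusted p = 0.0856 to 0.154). The call between c2 and NT ended without induced NT or induced c2 (adjusted p = 0.055 and 0.0586). Its knockdown value against all controls was 0.38 ± 0.24, or 0.12 ± 0.08 with the block (adjusted p = 1 and 0.58). FADS1 (chromosome 11, 61799625 to 61829318) lies on the minus strand within the span of FADS2 (61792980 to 61867354, plus strand; GRCh38). Which strand the libraries keep is not stated, so reads of the shared stretch are uncertain, and the main coding transcript of FADS2 carried 86.3% to 93.1% of its reads.

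**Figure D4:**
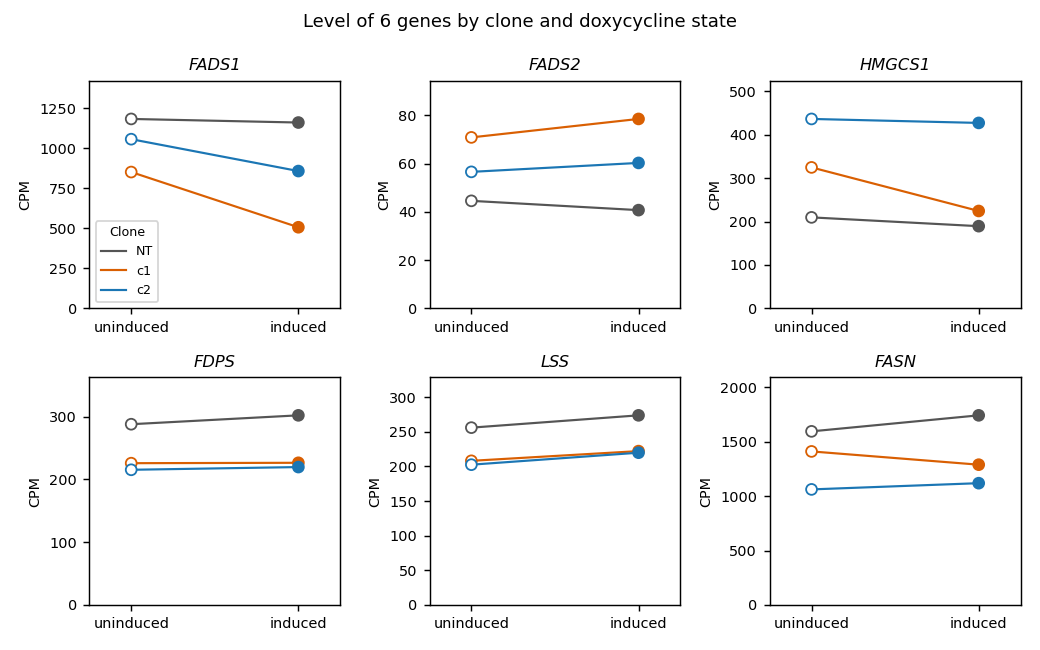
CPM (axes from 0) of FADS1, FADS2, HMGCS1, FDPS, LSS and FASN in the uninduced (open) and induced (filled) library of NT (grey), c1 (orange) and c2 (blue), with a line joining the libraries of a clone. FADS1 reads 507 CPM in induced c1 and 1160 CPM in induced NT, while FADS2 is lowest in NT and FDPS and LSS are highest there.

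SCD, the stearoyl-CoA desaturase, read 1196 and 1210 CPM in NT, 1505 and 1438 CPM in c1, and 1196 and 1274 CPM in c2. The c1 libraries lay above the rest, by 0.29 ± 0.05 against NT (adjusted p = 0.00726), in all 13 fits, and SCD was lower in c2 than in c1 by −0.25 ± 0.05 (adjusted p = 0.0126), which ended without uninduced c2 (adjusted p = 0.209) and on log2(TPM + 1) (adjusted p = 0.108). FASN read 1596 and 1744 CPM in NT, 1412 and 1290 CPM in c1, and 1062 and 1120 CPM in c2. In CPM the clones did not overlap, at −0.31 ± 0.07 for c1 (adjusted p = 0.0146), −0.61 ± 0.07 for c2 (adjusted p = 0.000961) and −0.31 ± 0.07 between c2 and c1 (adjusted p = 0.0139). In TPM they did, with 270 and 283 in NT, 287 and 230 in c1, and 215 and 221 in c2. With transcript length as an offset the values were −0.09 for c1 (adjusted p = 0.536), −0.40 for c2 (adjusted p = 0.0334) and −0.31 between c2 and c1 (adjusted p = 0.063). On log2(TPM + 1) limma made none of the 3 calls, at −0.11 for c1 (adjusted p = 0.529), −0.34 for c2 (adjusted p = 0.0981) and −0.24 between c2 and c1 (adjusted p = 0.197). In CPM, leaving out induced NT ended the c1 call (adjusted p = 0.0791) and leaving out uninduced c2 the call between the clones (adjusted p = 0.113).

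The 3′ untranslated regions of the members were also searched for the words ACTCCAT and CTCCATA, which an earlier look at the c2 response in these libraries had picked out, so they were chosen from the data and carry no test. Of 12663 tested genes with a 3′ untranslated region in their most abundant coding transcript, 1964 (15.5%) held either word. Among members it was 2 of 27 (7.41%), since EBP and FDPS had none to search. These were FADS1 and FASN, and a site of each is shown here with the word in capitals (GRCh38, GENCODE 29, minus strand).
FADS1, chr11:61801364-61801390: ggtcttttagCTCCATAagcaagtgag
FASN, chr17:82078498-82078524: ccgggcaccaACTCCATgtttggtgtt
FADS1 is the member with the lowest response in c1 (−0.75) and stood at −0.30 in c2. The lowest member in c2 was AACS (−0.32), which holds neither word. FASN stood at −0.13 in c1 and 0.08 in c2. A match shows only that the letters are present.

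A second list held 29 neighbouring genes of sterol uptake, transport and fatty acid elongation, of which 28 passed the filter. None of the 28 was called by edgeR in the knockdown, doxycycline, induction or response comparison, with or without the block. Between clones, 14 of 28 were called for c1 against NT (50%, beside 27.8% of all genes; 9 higher, 5 lower). For c2 against NT it was 10 (35.7%, beside 21.1%; 4 higher, 6 lower), and for c2 against c1 15 (53.6%, beside 26.8%; 3 higher, 12 lower). MLXIPL, which encodes the glucose-responsive factor ChREBP, was lower by −1.20 ± 0.11 in c1 and −0.93 ± 0.11 in c2 (adjusted p = 0.000494 and 0.00145). NPC1, which moves cholesterol out of lysosomes, was lower in c1 by −0.24 ± 0.06 and higher in c2 by 0.36 ± 0.06 (adjusted p = 0.0234 and 0.00596). ELOVL6, an elongase of saturated fatty acids, was higher in c1 by 0.60 ± 0.09 (adjusted p = 0.00257), and malic enzyme ME1 by 0.63 ± 0.11 (adjusted p = 0.00538). THRSP, ABCA1 and ABCG1 were under 1 TPM in every library. The calls above still include ABCA1 and ABCG1, both higher in c2 than in c1, and ABCG1 higher in c2 than in NT. These calls rested on at most 22 reads a library.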

How the data were processed

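Per the submitters' processing notes, transcripts were quantified with Salmon 1.5.2 on GRCh37 (hg19). The deposited tables hold, per the file headers, an estimated count of reads and a TPM value for each of 167268 transcripts. GENCODE 29 matched 151039 (90.3%) by identifier, and the rest held 6.23% to 6.5% of a library's reads and were left out. Its coordinates are GRCh38 and served for names and positions. The strand and the transcript annotation behind the tables were not stated. Estimated counts were summed per gene and rounded. Genes with about 10 counts in 2 libraries (filterByExpr) were kept and scaled by TMM, and log2 CPM used a prior count of 2. edgeR 4.0.16 (quasi-likelihood, two-sided, Benjamini-Hochberg over all 14075 genes, threshold 0.05) in R 4.3.3 gave the main tests, and DESeq2 1.42.0 and limma 3.58.1 on log2(TPM + 1) were alternatives, with others in the closing section. The main edgeR tests and their blocked forms were tried on simulated data, and the other fits were not.

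The clone pairs an uninduced with an induced library. Deviations from the means of each state correlated within clones at r = 0.696 (NT), 0.772 (c1) and 0.83 (c2) over 9094 genes. Blocked values are therefore printed where they change a call or a count. Counting intervals (95%) cover counting error only. Members called by a comparison (at most the 8 of smallest p, with the rest in brief) or, where none was called, the 3 of smallest p are given in full. Members and lists were chosen with earlier results of these data known. Second-list genes are named from those called. A few items are not reported here.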

Additional observations from a re-analysis of the deposited data

Results flagged for a closer look

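SCD in uninduced c1, at 1505 CPM, stood far from the other 3 control libraries, the next of which read 1210 CPM. The gap filled 0.955 of the range of the 4 controls. Of 29 genes tested this way, 1 was marked, where chance marks about 1 in 20 groups. Induced c1, outside the controls, read 1438 CPM. The other control libraries come from other clones.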

How the results depend on the processing

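No alternative with the clone as replicate block called a member for knockdown against all controls, for doxycycline over all clones or for the clones' response against NT, except that leaving out either NT library made the count 1 (FADS1) in the first and second, a range of 0 to 1. For induced against uninduced clones the paired fit called 1 member, FADS1, and so did the paired fits without a low-count filter or without either NT library, whereas the paired fits with DESeq2, a length offset or TPM and all unblocked fits called 0. Members called between clones on log2(TPM + 1) were 7 for c1 against NT, 4 for c2 against NT and 6 for c2 against c1. Leaving out 1 library gave 7 to 12, 4 to 13 and 4 to 12. MVD in the response comparison turned to −0.0136 on log2(TPM + 1), with and without the block. For the called members of smallest p between clones, those given in full, 45 fits ended a call and 243 did not. These counts leave out the called members of larger p. They were HMGCS1, MSMO1 and CYP51A1 for c1 against NT, and SC5D and DHCR7 for c2 against NT. For c2 against c1 they were TM7SF2, DHCR7 and FADS1. The calls left out were made in 4 to 11 of the 13 fits run. Genes called in all fell with transcript length as an offset from 3918 to 2370 (c1 against NT), 2964 to 1793 (c2 against NT) and 3766 to 2308 (c2 against c1), and on log2(TPM + 1) to 1796, 1318 and 1890. With the block, DESeq2 called 113 genes for knockdown against controls where edgeR called 6, and 69 for induced against uninduced clones where edgeR called 141. The cause was not tested. The response comparison cannot be formed without an NT library. Blocked fits of the induction and response comparisons without a CDAN1-shRNA library keep no residual degrees of freedom and were not run. Blocked fits with DESeq2, no filter, a length offset or TPM, and those of the induction comparison without an NT library, were chosen after seeing the data. With 1 culture for each clone and state, clone and culture cannot be told apart, and depth limits PMVK, with 167 to 286 reads.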
